A study of Mus musculus with 8 samples.

Results

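The septin genes encode GTP-binding proteins that join end to end into filaments beneath the plasma membrane. They were chosen by name from the deposited gene tables, in which they read as calendar dates, so that Sept6 is listed as 6-Sep. This gave 12 septin genes of 11364 genes, and all 12 matched between both tables. The site table added every site whose closest transcription start site (TSS) is a septin gene, which gave 17 of 5551 sites, spread over 7 septins. The family was selected on the basis of measured values of 6-Sep in these data, so its values are given as a description, with no test. In dividing cells septins gather at the cleavage furrow, where anillin, non-muscle myosin II and the small GTPase Cdc42 with its Borg effectors work beside them in cytokinesis. In blood cells they are known from platelets and as fusion partners of MLL in leukemia. A filament is built from members of the SEPT2, SEPT6 and SEPT7 groups, to which members of the SEPT3 group can be added.

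The cells were K1 cells, an immortalised erythroid line from Klf1-/- mouse fetal liver. KLF1 is the erythroid zinc finger transcription factor, and the E339K change of mouse KLF1 models the human mutation of congenital dyserythropoietic anemia type IV. K1-E339K-ER cells, labelled CDA-KLF1-ER or K1-CDA-ER by the submitters, carry KLF1-E339K fused to an estrogen receptor domain on a retroviral GFP vector, and 4-OHT, the active form of tamoxifen, moves the fusion into the nucleus. K1-ER cells carry wild type KLF1-ER in the same way. All of these cells, the K1 controls included, lack endogenous KLF1, and the transgenic lines were sorted for GFP after infection. The labels give 8 libraries. For nascent RNA, labelled for 30 min with 500 µM 4-thiouridine (4sU), there were 3 K1 libraries, of which 2 were treated with 200 nM 4-OHT and 1 with ethanol, and 3 K1-E339K-ER libraries, from 3 clones, all induced with 200 nM 4-OHT. The paper's methods give a longer labelling time than the labels. For chromatin occupancy there was 1 KLF1-E339K-ER ChIP library, from 1 clone induced for 3 h with 200 nM 4-OHT and pooled from 3 replicates, and 1 input library. K1-ER values in the tables come from libraries of the authors' earlier work. The tables hold means over libraries whose number is not given in the sources used here, so depth is unknown and no error between libraries can be given for any value below.

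The labelled cell type was checked on marker genes in the same gene table. All 10 erythroid markers were listed, with mean log2 CPM from 3.79 to 9.79, led by the transcription factors Gata1 (9.79) and Tal1 (9.48), and 8 of the 10 stood above the median of all genes (5.27). The other 2 were the globin genes Hbb-b1 (3.87) and Hba-a1 (3.79). None of the 3 hepatocyte and none of the 3 lymphocyte markers was listed. Of the 4 macrophage and granulocyte markers 2 were listed, at no more than 1.84. Of the 4 megakaryocyte markers Itga2b (5.30) and Gp9 (1.79) were listed. Without allowance for gene length, Itga2b stood above both globin genes and level with the heme synthesis gene Alas2 (5.29). Per kb of gene length the order differed. Hbb-b1 stood at 3.39 and Hba-a1 at 3.09 log2 CPM per kb, above Itga2b at 1.25 and Gp9 at 1.08. On that scale Alas2 was at 0.75 and the median of all genes was 0.82. Klf1 stood at a mean log2 CPM of 6.84, into which transgene reads can count. Gene order and levels below are over all of these libraries together.

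The DNA under the septin sites is shown first, because the study separated the proteins by the base at position 5 of a 9-base motif. The motif it found for KLF1-E339K-ER has a purine there (the words NGGGAGTGG, NGGGAGGGG, NGGGGGTGG and NGGGGGGGG), and that for KLF1-ER a pyrimidine (NGGGCGTGG, NGGGCGGGG, NGGGTGTGG and NGGGTGGGG). Exact matches to these words were looked for in mm9, on either strand. Matches of 1 kind can overlap each other in G-rich stretches, and no word belongs to both kinds. The stretches below were chosen as the match nearest the middle of 9 sites, with at least 1 for each of the 7 septins that have a site. Each is read 5′ to 3′ on the strand of its match, with the 9-base word in capitals.
4-Sep, chr11:87384460-87384520, minus strand, purine: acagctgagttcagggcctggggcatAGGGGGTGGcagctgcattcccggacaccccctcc
6-Sep, chrX:34529577-34529605, minus strand, purine: acctactctgAGGGGGTGGgtgatagagg
6-Sep, chrX:34528832-34528892, minus strand, pyrimidine: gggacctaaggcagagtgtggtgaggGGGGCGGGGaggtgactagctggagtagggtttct
7-Sep, chr9:25068202-25068262, plus strand, purine: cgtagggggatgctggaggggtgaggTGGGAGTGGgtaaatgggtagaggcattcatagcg
8-Sep, chr11:53335350-53335410, minus strand, pyrimidine: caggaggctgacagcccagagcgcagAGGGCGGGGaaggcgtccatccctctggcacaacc
9-Sep, chr11:117185593-117185653, minus strand, pyrimidine: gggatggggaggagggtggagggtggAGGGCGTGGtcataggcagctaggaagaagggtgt
9-Sep, chr11:117268886-117268946, minus strand, purine: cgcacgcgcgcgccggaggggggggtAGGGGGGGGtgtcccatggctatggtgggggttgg
10-Sep, chr10:58684062-58684122, plus strand, pyrimidine: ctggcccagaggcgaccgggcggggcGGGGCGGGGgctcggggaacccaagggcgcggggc
11-Sep, chr5:93522079-93522139, minus strand, pyrimidine: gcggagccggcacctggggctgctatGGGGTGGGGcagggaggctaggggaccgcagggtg
The 4-Sep, 7-Sep and 9-Sep purine stretches come from sites where the KLF1-E339K-ER concentration was at least 4-fold higher. The 8-Sep, 9-Sep and 10-Sep pyrimidine stretches come from sites where the KLF1-ER concentration was at least 4-fold higher. The 6-Sep pyrimidine stretch comes from a site where KLF1-E339K-ER was at least 4-fold higher, and the 6-Sep purine and 11-Sep stretches come from sites where the proteins differed by less than 4-fold.

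Septin sites with KLF1-ER higher and with KLF1-E339K-ER higher were equal in number over all distances. A concentration is the log2 of the mean normalised read count at a site, as the authors deposited it. A difference of 2 on this scale is 4-fold. The KLF1-ER values come from libraries of the authors' earlier work. At every site a difference between the proteins therefore cannot be told apart from one between experiments. At 7 of the 17 septin sites (41.2%) the concentration was at least 4-fold higher for KLF1-E339K-ER, where 55.3% of all sites had such a difference. At 7 sites (41.2%) it was at least 4-fold higher for KLF1-ER, where 23.3% of all sites had such a difference. The remaining 3 sites (17.6%) differed by less than 4-fold, as did 21.4% of all sites. Within 10 kb of the listed TSS the counts were 2 for KLF1-E339K-ER and 4 for KLF1-ER. Among sites with the higher concentration at 5 or more they were 4 and 7. These counts are small, and the shares of all sites under these limits are not given here. A Sept4 site with KLF1-E339K-ER higher, 10166.5 bp from the listed TSS, lay 2036.5 bp from another annotated Sept4 start. Counted in or within 10 kb of a septin gene, the numbers were 7 for KLF1-E339K-ER and 6 for KLF1-ER, again without a share over all genes. The median KLF1-ER concentration was 3.86 at the septin sites and 2.82 at all sites, and the median KLF1-E339K-ER concentration was 4.27 and 4.86. At 4 septin sites (23.5%) KLF1-ER was at the lowest value of the table, -0.09, which 25.7% of all sites share, so the size of a difference there is not a measured fold. With 17 sites, of which 7 belong to 9-Sep, these shares describe the sites listed and are not set against the background by a test.

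**Figure D1:**
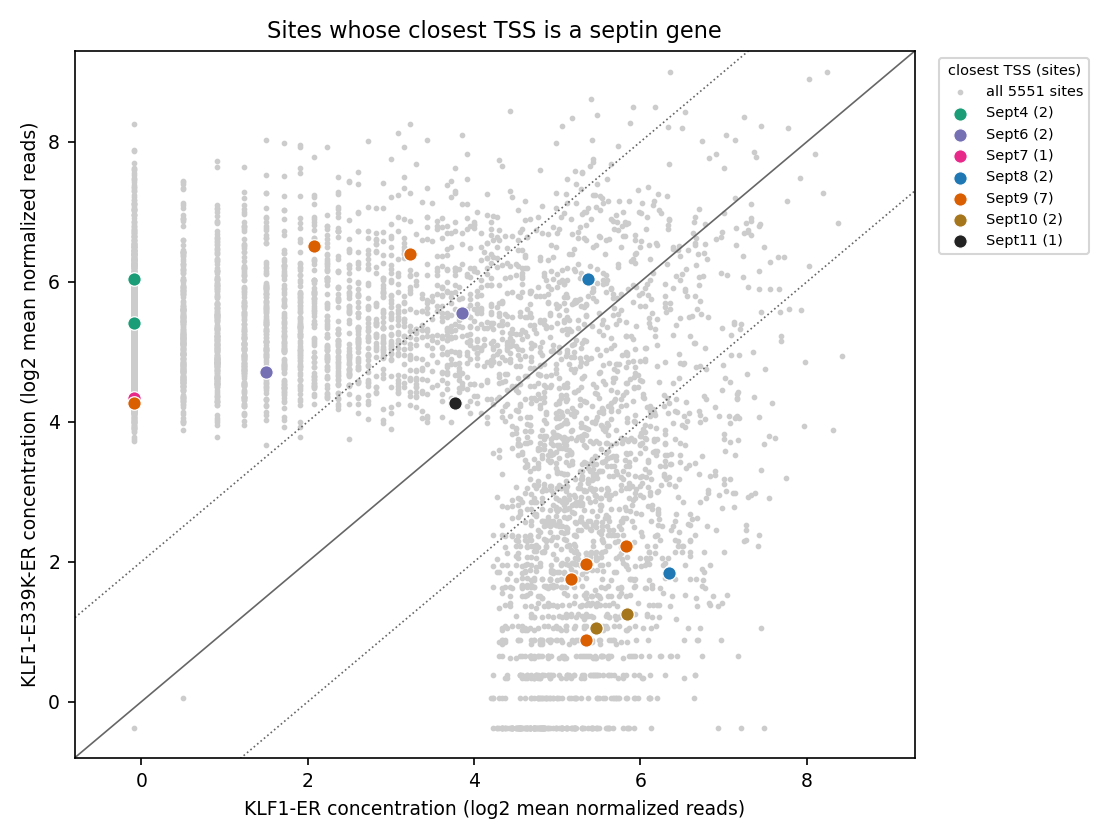
Concentration of KLF1-ER (x axis) and KLF1-E339K-ER (y axis) at each site, both as log2 mean normalised reads; grey points are all 5551 sites, coloured points the 17 septin sites by closest TSS, the solid line is equality and the dotted lines are 4-fold differences. Of the septin sites, 7 lie above the upper dotted line, 7 below the lower one and 3 between them.

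The genes themselves differed in which protein was higher at their sites. Sept4, of the SEPT2 group and known from the sperm tail and from an isoform that acts in apoptosis, had 2 sites and KLF1-ER was at its lowest value, -0.09, at both. The KLF1-E339K-ER concentrations there were 5.41 and 6.04. The first of these sites (chr11:87384311-87384622) lay in an intron of Sept4, 10166.5 bp upstream of the listed TSS, and the second (chr11:87320898-87321209) lay in an intron of the germ cell gene Tex14, 73579.5 bp upstream. Sept7, the single member of its group and a core subunit of septin filaments, had 1 site (chr9:25068032-25068374) in an intron 8163 bp downstream of its TSS. KLF1-ER was again at -0.09 and KLF1-E339K-ER at 4.34. Each of these sites held a purine word and no pyrimidine word, within 50 bp of the midpoint for the intronic sites of Sept4 and Sept7 and 94.5 bp from it in Tex14.

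Sept6 (6-Sep, Entrez 56526, chrX:34451321-34531789 on the minus strand), the filament subunit that names the SEPT6 group, had 2 sites near its listed TSS. That TSS, at chrX:34529690, lay inside the annotated gene and not at its outer start, 34531789. The site at chrX:34529416-34529733 had a KLF1-ER concentration of 3.86 and a KLF1-E339K-ER concentration of 5.56, a difference of 1.70. Its midpoint lay in a UTR, 115.5 bp downstream of the listed TSS. The site at chrX:34528783-34529102 lay in an intron, 747.5 bp downstream, with 1.50 for KLF1-ER and 4.71 for KLF1-E339K-ER, a difference of 3.21. KLF1-E339K-ER was thus higher at both, and past 4-fold at the intronic site only. The site with the smaller difference held 3 purine words within 50 bp of its midpoint. The intronic site held no word of either kind there and a single pyrimidine word 80.5 bp from its midpoint. The printed 29-base stretch is from the first site and the printed pyrimidine stretch of 6-Sep from the second.

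The other SEPT6 group members with sites, Sept8, Sept10 and Sept11, differed from Sept6 and from each other. Sept10 had 2 sites at its start and KLF1-ER was higher at both. At chr10:58684396-58684754, 20 bp downstream of the TSS with the midpoint in a UTR, KLF1-ER stood at 5.46 and KLF1-E339K-ER at 1.05. At chr10:58683932-58684320, 469 bp downstream in an intron, they stood at 5.84 and 1.25. The differences in favour of KLF1-ER were 4.41 and 4.59, and the sites held 2 and 3 pyrimidine words within 50 bp of the midpoint and no purine word. Sept8 had 2 intronic sites that differed from each other. At chr11:53334110-53334508, 1071 bp downstream, both proteins were high, with 5.37 for KLF1-ER, above 81.4% of all sites, and 6.04 for KLF1-E339K-ER, above 84.5%. At chr11:53335228-53335589, 2170.5 bp downstream, KLF1-ER stood at 6.34, the highest of the septin sites, and KLF1-E339K-ER at 1.84. The second held 1 pyrimidine word, and the first was the 1 septin site with no word of either kind anywhere in it. Sept11, the septin with the highest mean log2 CPM before division by length, had 1 site (chr5:93521935-93522271) 380 bp upstream of its TSS, at 3.77 for KLF1-ER and 4.27 for KLF1-E339K-ER. This site held 1 pyrimidine word within 50 bp of its midpoint and no purine word, and the proteins differed by 0.50.

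**Figure D2:**
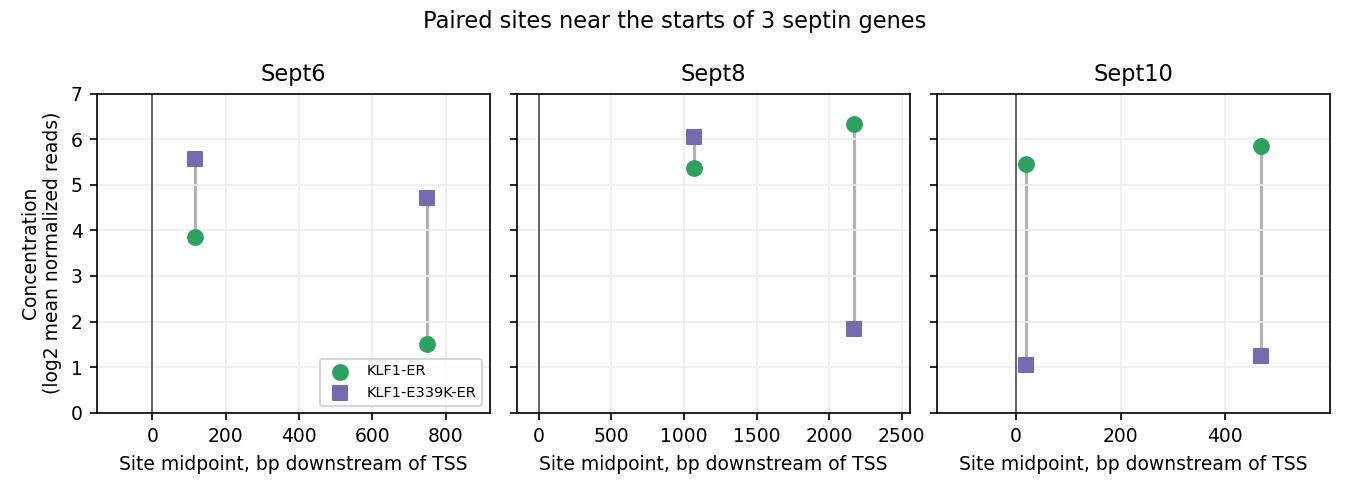
Concentration (log2 mean normalised reads, y axis) of KLF1-ER (circles) and KLF1-E339K-ER (squares) at the site pairs of Sept6, Sept8 and Sept10, plotted by the distance of the site's midpoint downstream of the listed TSS in bp (x axis, with a scale of its own for each gene; the vertical line is the TSS). KLF1-E339K-ER is higher at both Sept6 sites, KLF1-ER at both Sept10 sites, and the Sept8 pair changes from near equality at 1071 bp to KLF1-ER at 2170.5 bp.

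Sept9, of the SEPT3 group, which binds microtubules and is an integration site of retroviruses in mouse T cell lymphoma, had 7 sites, the most of any septin. KLF1-ER was at least 4-fold higher at 4 of them and KLF1-E339K-ER at 3. Inside the gene lay 2 sites, both in introns and both with KLF1-ER higher. At chr11:117181260-117181596 the values were 5.35 for KLF1-ER and 1.97 for KLF1-E339K-ER, and at chr11:117185471-117185810 they were 5.34 and 0.88. The other 5 lay past the end of Sept9, by 33.0 to 53.8 kb, and are counted here only because no other listed TSS is closer. Nearest to the gene were 3 intergenic sites with KLF1-E339K-ER higher. The KLF1-ER concentration was -0.09 at chr11:117256425-117256793, 2.08 at chr11:117268737-117269040 and 3.23 at chr11:117269582-117269902, and the KLF1-E339K-ER concentration was 4.27, 6.51 and 6.40. The value of 6.51 was the highest of KLF1-E339K-ER at any septin site. Beyond them lay 2 sites with KLF1-ER higher, at 5.83 against 2.22 (chr11:117276164-117276499, in an intron of Gm11729) and 5.16 against 1.76 (chr11:117277270-117277586). Of the 4 sites with KLF1-ER higher, 3 held a pyrimidine word within 50 bp of the midpoint and the other held its nearest one 98.0 bp away, and all 3 sites with KLF1-E339K-ER higher held a purine word within 50 bp.

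Over the 17 septin sites, purine words lay within 50 bp of the midpoint of 6 sites (35.3%, against 35.5% of all sites) and pyrimidine words of 7 sites (41.2%, against 35.3%). No septin site held both there, and 4 held neither. Among the 7 sites with KLF1-E339K-ER higher, 5 held a purine word and 0 a pyrimidine word, where 46.3% and 21.8% of all sites with that difference did. Among the 7 sites with KLF1-ER higher, 6 held a pyrimidine word and 0 a purine word, where 62.8% and 15.1% of all sites with that difference did. Over the whole site, purine words were in 6 of the 7 sites with KLF1-E339K-ER higher (69.8% of all such sites) and pyrimidine words in 1 of these 7 (45.6%), and pyrimidine words were in 7 of the 7 sites with KLF1-ER higher (79.8% of all such sites). Within 25 bp the septin shares were instead below those of all such sites. Purine words were in 1 of the 7 sites with KLF1-E339K-ER higher, against 33.9% of all such sites. Pyrimidine words were in 3 of the 7 sites with KLF1-ER higher, against 50.3%. The study derived both motifs from these same peaks, so the counts are not independent evidence of either motif. In all there were 32 matches in the septin sites. Base 5 was G in 8 and A in 5 of the 13 purine matches, and C in 12 and T in 7 of the 19 pyrimidine matches. In the paper's binding assays with purified zinc fingers, the mutant preferred G at this position. Neither protein bound the probe with A strongly there, and their affinities for it were similar. The G+C content of the bases within 50 bp of the midpoint ran from 54.5% to 77.2% with a median of 62.4%, beside a median of 63.4% at all sites.

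**Figure D3:**
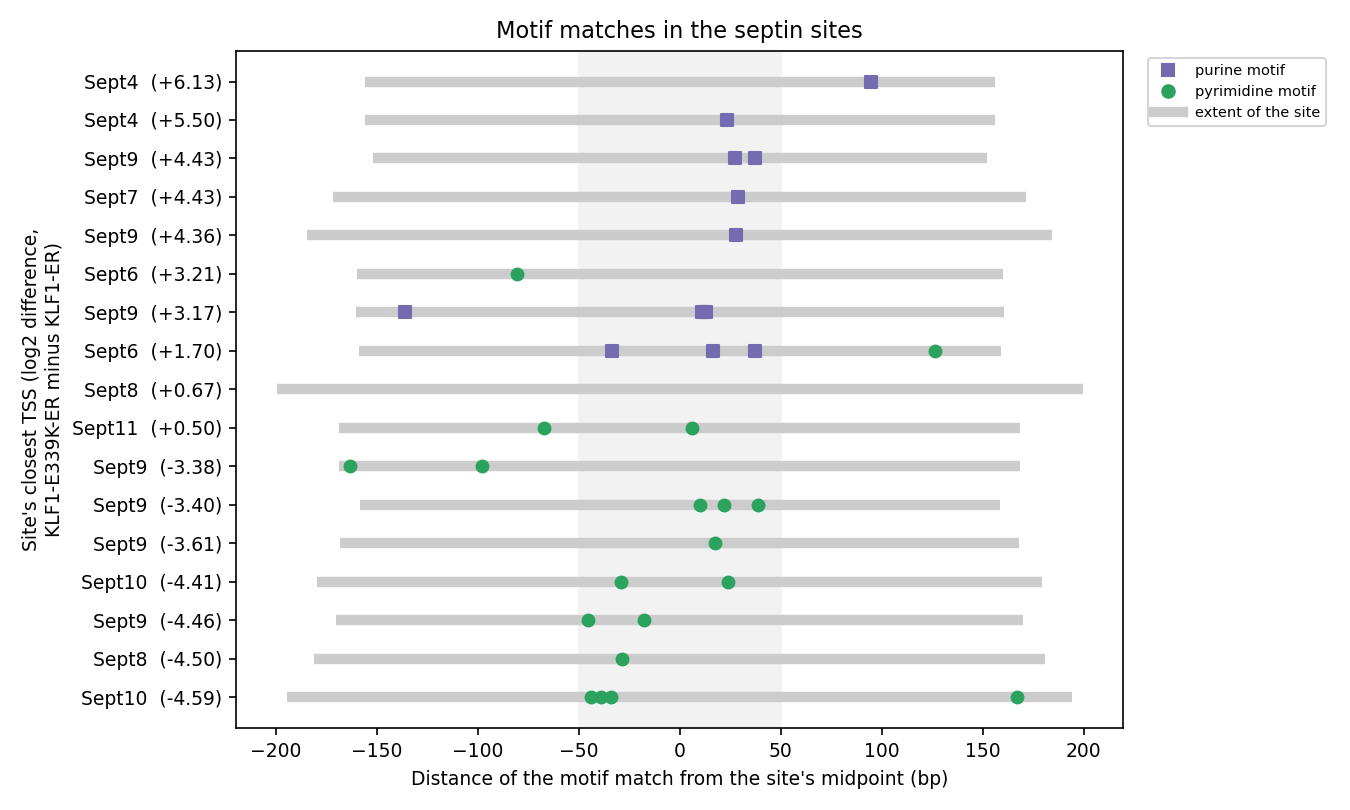
Distance in bp from the midpoint (x axis) of each purine (square) and pyrimidine (circle) match in the 17 septin sites, ordered on the y axis by the log2 concentration of KLF1-E339K-ER minus that of KLF1-ER, given beside the name of the closest TSS; grey bars are the extent of each site and the shaded band is 50 bp to each side. Purine matches occur in rows with a difference of 1.70 or more and pyrimidine matches in rows of 0.50 or less, apart from the 2 Sept6 sites, which also hold pyrimidine matches outside the band.

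A smaller share of the septin sites than of all sites lay near the listed TSS, and this difference was not tested. Within 1 kb of the listed TSS were 5 of 17 (29.4%, against 39.5% of all sites) and within 10 kb 9 of 17 (52.9%, against 67.6%), with median distances of 8163 and 2936 bp. A midpoint fell in an intron of any gene at 10 sites, in a UTR at 2 and between genes at 5. The introns include those of Tex14 and Gm11729, which are not septins. These places were not counted over all sites. Of the 5 sites within 1 kb, Sept6 and Sept10 had 2 each and Sept11 had 1. By direction these were 1 with KLF1-E339K-ER at least 4-fold higher, 2 with KLF1-ER at least 4-fold higher and 2 under 4-fold. The shares by direction of all sites within 1 kb are not given here, so these counts have no background.

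No site was assigned to Sept1, Sept2, Sept3, Sept5, Sept12 or Sept14. For Sept2, a filament subunit needed for cytokinesis, this follows from how the table names sites. A site at chr1:95375249-95375578 has its midpoint 127.5 bp from a Sept2 start but 28.5 bp from that of Hdlbp, a gene for an RNA-binding protein, and is listed under Hdlbp. KLF1-ER stood there at 2.72 and KLF1-E339K-ER at 5.05, a difference of 2.33, and the site held 1 purine and 1 pyrimidine word within 50 bp of the midpoint. Sept1, a member of the SEPT2 group expressed in lymphoid cells, had 2 sites within 10 kb, both listed under Tbc1d10b. KLF1-E339K-ER was higher at each, with 4.71 against -0.09 and 5.25 against 1.23. For Sept3, Sept12, Sept5 and Sept14 the nearest site was 44914.5, 122250, 150031 and 207369 bp away.

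Taken by the annotation instead, 16 sites lay in or within 10 kb of a septin gene, and 5 of them had another gene as the closest TSS. Besides those of Sept1 and Sept2, these were a site 8293 bp past the end of Sept6, listed under Nkrf (4.71 for KLF1-E339K-ER and -0.09 for KLF1-ER), and a site 5000.5 bp past the end of Sept4, listed under Mtmr4 (5.65 for KLF1-ER and 2.75 for KLF1-E339K-ER). Counted in this way KLF1-E339K-ER was at least 4-fold higher at 7 sites and KLF1-ER at 6, with no share over all genes to set beside them. The Mtmr4 site is the 1 site near Sept4 with KLF1-ER higher, so the direction at Sept4 holds for the sites listed under that gene.

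The nascent RNA level of the septins spanned 9.31 on the log2 CPM scale. Mean log2 CPM over all libraries ran from -1.49 for Sept5 to 7.81 for Sept11, and 3 of the 12 septins, Sept11, Sept2 and Sept7, stood above the median of all genes (5.27). The median of the septins was 3.49. These means do not allow for gene length, so the genes are compared with each other per kb of the deposited length. That length was longer than the spliced exons for 12 of 12 septins, as a span with introns would be, but it differs from the annotated span for some. For Sept4 it was 9409 bp where the GENCODE span is 21637 bp, and for Sept1 it was 4004 bp, close to the GENCODE span of 4052 bp, where the RefSeq span is 20277 bp. On the scale of log2 CPM per kb, Sept2 stood highest at 1.62, and then Sept11 at 1.47, Sept7 at 0.67, Sept3 at 0.23 and Sept8 at -0.05. Lower were Sept4 at -0.56, Sept1 at -1.85, Sept6 at -1.98 and Sept12 at -2.45. Sept10 at -4.32, Sept5 at -4.51 and Sept9 at -6.35 were last, at percentiles 5.13, 4.61 and 1.56 of all genes. By its GENCODE span Sept4 would be at -1.76, and by its RefSeq span Sept1 would be at -4.19, below Sept6 and Sept12. Sept2 and Sept11 were the septins above the median of all genes per kb, 0.82. Neighbours in this order, such as Sept2 and Sept11 or Sept1 and Sept6, cannot be told apart from these values, which carry no spread over libraries.

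**Figure D4:**
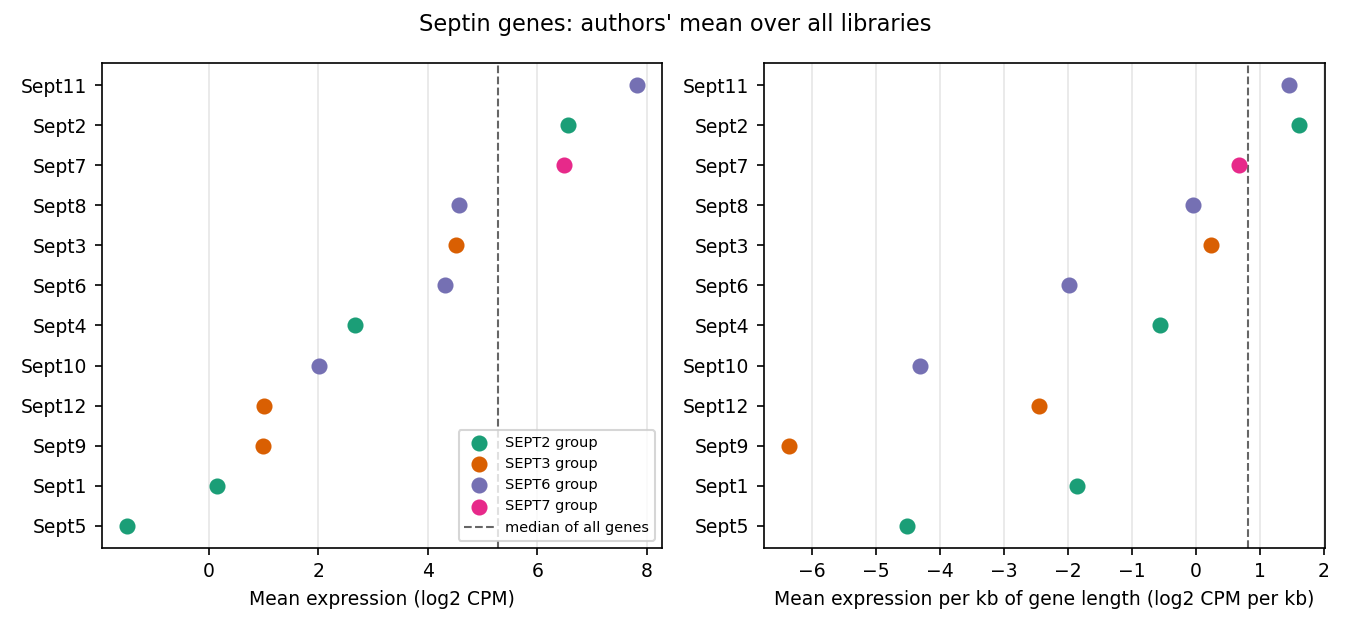
Mean expression of the 12 listed septins as the authors' mean log2 CPM over all libraries (left) and per kb of the deposited gene length (right); each point is 1 gene, coloured by septin group, and the dashed line is the median of all genes. Sept11, Sept2 and Sept7 lie above the median on the left, and Sept2 and Sept11 on the right.

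By group, on the scale of CPM per kb, the SEPT2 group held 36.8% and the SEPT6 group 36.5% of the summed septin level, Sept7 alone held 14.4% and the SEPT3 group 12.4%. In the SEPT2 group most of it was Sept2, at 3.07 CPM per kb, followed by Sept4 at 0.678. In the SEPT6 group Sept11 stood at 2.76 and Sept8 at 0.969, ahead of Sept6 at 0.253 and Sept10 at 0.0501. In the SEPT3 group Sept3, known from neurons, stood at 1.17, ahead of Sept12, known from sperm, at 0.182 and Sept9 at 0.0122. Without the division by length the shares were 20.8% for the SEPT2 group and 55.5% for the SEPT6 group. The shares per kb, 36.8% and 36.5%, rest on the deposited lengths and do not place either group first. By the GENCODE span, Sept4 would move from -0.56 to -1.76 log2 CPM per kb and Sept8 from -0.05 to -0.36. Sept6 was 3.45 below Sept11 and 1.94 below Sept8 in log2 CPM per kb. Per kb of spliced exon, which suits mature more than nascent RNA, Sept11 (5.21), Sept7 (4.62) and Sept2 (4.23) stood above the median of all genes (3.50) and Sept6 was at 1.01 on the log2 scale. The genes nearest to Sept6 in log2 CPM per kb of gene length, out of all 11364, were Rgs2, Ptrhd1 and Kat2b.

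Levels and sites of the septins can be set side by side. Sept9, with 7 sites, was last in level per kb, while Sept11 and Sept7, among the highest 3, had 1 site each. Of the Sept9 sites 2 lay in or within 10 kb of the gene by the annotation, where Sept6 had 3. Sept10, with KLF1-ER concentrations of 5.46 and 5.84 at its start, was at -4.32 log2 CPM per kb. Sept3, with its nearest site 44914.5 bp away, stood at 0.23, above Sept6 at -1.98. These levels average K1, K1-ER and K1-E339K-ER libraries, so they do not show how either protein changed them.

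Genes that work with septins were read from the same tables. Of 17 such genes 14 were listed, and 11 of the 14 stood above the median of all genes in log2 CPM per kb (0.82), where 2 of the 12 septins did. The median of the 14 was 1.53. On this scale the mitotic kinase Aurkb stood at 3.40, Racgap1, a protein of the spindle midzone, at 3.32 and the microtubule bundler Prc1 at 3.19. Anillin (Anln) stood at 2.19, and the Borg effectors Cdc42ep3 and Cdc42ep2 at 1.66 and -2.36. Kif23, Ect2, Cdc42 and the non-muscle myosins Myh9 and Myh10 were also above the median, and citron kinase (Cit), Arhgef18 and Cdc42ep2 were the 3 below it. These values were chosen after they were seen. Cdc42ep1, Cdc42ep4 and Cdc42ep5, other Borg effectors, were the 3 genes not in the tables. Of the 14 listed partners 3 (21.4%) were the closest TSS of a site, with 1 site each, where 2868 of the 11364 genes (25.2%) and 7 of the 12 septins (58.3%) were. At Myh9 the concentrations were 8.42 for KLF1-ER, the highest of KLF1-ER at any of the 5551 sites, and 4.94 for KLF1-E339K-ER, 171.5 bp from the TSS. The Myh9 site held no word of either kind within 50 bp of its midpoint. At Racgap1 the concentrations were 5.98 and 0.39 with 2 pyrimidine words within 50 bp of the midpoint. At Cdc42 they were -0.09 and 5.00 with 1 purine word. The site of Cdc42 lay 12804.5 bp from its TSS.

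The promoters of the septins in the RefSeq set of assembly GRCm38.p6, from 250 bases before to 50 after each start, were searched for the same words. The set held 19 promoters of 9 septin genes, and those of Septin1, Septin3, Septin5 and Septin6 were not analysed here. A purine word was found in 8 (42.1%, against 22.6% of all 32851 promoters) and a pyrimidine word in 9 (47.4%, against 29.7%). Several of these promoters belong to 1 gene and overlap, so they are not separate observations. The start of Septin10, the RefSeq name of Sept10, held 2 pyrimidine words and no purine word, and that of Septin11 held 1 pyrimidine word and no purine word. Both Septin2 promoters held 1 purine and 2 pyrimidine words.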

How the data were processed

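Nascent RNA and chromatin occupancy were taken from the tables that the authors deposited. Per the paper's methods, reads were mapped to mm9 (RNA with Tophat2, version 2.0.10 in the submitters' processing notes, and TMAP) and peaks called with MACS2 and GEM. The deposited gene tables hold limma-voom mean expression as log2 CPM, and the deposited site table holds DiffBind concentrations as log2 mean normalised reads. Fold changes, t, p-values and FDR in these tables are the authors' own comparisons and were not used. Tools were Python 3.11.15, pandas 2.3.3 and matplotlib 3.10.9, and the motif search was tested on simulated data. Levels per kb are log2 CPM minus log2 length in kb. A difference of 4-fold was called. Motifs were exact words within 50 bp of the midpoint. Positions are mm9, with genes from GENCODE M1. Of 5168 closest TSS named in it, 94.1% lay within 100 bp of an annotated start. The means cover all libraries, so samples could not be regrouped and no test was made. All septins are named, with counts over 17 partner genes, up to 6 of their levels, and the 3 genes nearest to Sept6. Of the partners, 1 is not named here. Members and lists were chosen with earlier results of these data known. Depth per library is unknown.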

Additional observations from a re-analysis of the deposited data

How the results depend on the processing

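No paired analysis was possible because the tables hold means over libraries and no test was made. Of 28 alternatives, 15 left a count within 1.5 times its value and 13 were labelled moved. The 1.5 limit was applied to counts only. All alternatives for the median septin level are among the 13, because any change of that median was labelled moved, whatever its size. The 7 septin sites with KLF1-E339K-ER at least 4-fold higher became 4 where the higher concentration was at least 5, 2 within 10 kb of the TSS and 1 within 1 kb. The 7 with KLF1-ER higher became 4 within 10 kb and 2 within 1 kb. The shares of all sites under these limits are not given. Purine motifs within 10 kb of the TSS were at 2 sites. A search 25 bp to each side of the midpoint left 2 sites with a purine motif (11.8%, against 24.99% of all sites). It left 4 with a pyrimidine motif (23.5%, against 25.5%). Counts fall with fewer sites or bases searched, but these shares compare the same window. At sites with KLF1-E339K-ER higher, 14.3% of the septin sites and 33.9% of all such sites held a purine motif. The excess of purine motifs there at 50 bp thus depends on the window. The median septin level of 3.49 became 4.52 among genes with a mean log2 CPM of at least 1, and on other scales -1.21 per kb of gene length and 0.92 per kb of exonic length. With the GENCODE M1 or RefSeq span as length, chosen after seeing the data, it was -1.81 and -1.95. The tables carry no depth, counts or replicate values, so they give no error for a site or gene, and the KLF1-E339K-ER concentrations rest on 1 pooled library. Of the 8 sites beyond 10 kb, 5 are Sept9 sites past the end of that gene.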
